A study of Mus musculus with 24 samples.

Results

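The serpins are a gene family of protease inhibitors and of proteins that share their fold without inhibiting a protease, and 24 of them were measured here across cultured mouse lung adenocarcinoma cells in 6 groups. They are the rows of the deposited count tables whose symbol starts with Serpin, without pseudogenes, that reached 0.2 counts per 1e6 counts (CPM) in at least 4 libraries of a table. They were thus chosen by their measured CPM, and the rule compared no groups. They are 24 of 63 Serpin rows, in tables of 38937 genes for the shRNA libraries and 39310 genes for the siRNA libraries. That these 24 genes were present is therefore not a result. A group holds 4 libraries, so a gene could pass through only the libraries where it was high. Among members tested between genotypes, Serpina1a, Serpina1c, Serpina9 and Serpinb12 each passed in cells of a single genotype. Serpina1b passed in a single library outside the genotype where it was high. The rule thus partly set the genotype differences of these members. The limit was passed by 12 members in shRNA libraries, by 22 in siRNA libraries and by 10 in both.

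A serpin inhibitor offers a protease an exposed loop as bait. When the loop is cut, it folds into the body of the serpin and drags the protease along, which leaves both proteins locked in an inactive complex. Secreted serpins of this kind limit blood clotting, the breakdown of clots by plasmin, and neutrophil elastase in the lung, while the clade b serpins (named Serpinb) stay mostly inside cells and guard against granule and lysosomal proteases. A few members have left inhibition behind: Serpinh1 is a collagen chaperone of the endoplasmic reticulum, and Serpina7 carries thyroid hormone in plasma.

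The cells came from lung tumours, were sorted as GFP-positive and CD45-negative, and were grown in culture. The study asked about the integrated stress response, in which phosphorylation of the translation factor eIF2α raises translation of the transcription factor Atf4. The 6 groups had 4 libraries each. They were eIF2α A/A cells given siChchd10, A/A cells given siControl, eIF2α S/S cells given siChchd10, S/S cells given siControl, S/S cells carrying an Atf4 shRNA (shAtf4), and S/S cells carrying a scramble shRNA (shControl). S/S cells carry the normal serine of eIF2α, and A/A cells carry an alanine in its place, which cannot be phosphorylated. Chchd10 encodes a small protein of the mitochondrial intermembrane space. The labels do not say from how many tumours or clones the cells of each genotype were grown, so genotype and culture cannot be told apart. They do not say either whether the 4 libraries of a group were separate cultures, so the p-values speak only of how far these samples spread.

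In units of 1e6 counts, library totals were 14.1 to 59.9 for shAtf4, 17.5 to 70.9 for shControl and 42.9 to 75.4 for the 16 siRNA libraries. Atf4 was at 39.9% of its shControl level in shAtf4 cells, and Chchd10 was at 20.5% of the siControl level in A/A cells and at 14.8% in S/S cells given siChchd10. The starting levels differed: with siControl, Chchd10 in A/A cells was at 21.0% of its level in S/S cells. Markers of lung tumour epithelium summed to between 3805 and 6726 CPM in every library, against 2.56 to 5.10 CPM for leukocyte markers and 2.25 to 18.4 CPM for fibroblast markers. Of the epithelial markers, Krt8, Krt18, Krt19 and Cdh1 each averaged at least 319 CPM in every group. Epcam did not: it averaged 1.44 CPM in A/A siControl and 2.57 CPM in A/A siChchd10, against 8.93 to 36.7 CPM in the S/S groups. Replicate 4 of both shRNA groups stood apart on the first principal component, which held 62.9% of the variance, at 30.6 in shAtf4 and 31.7 in shControl against -18.4 to -2.13 in the other 6 libraries. In the siRNA table the library A/A siControl replicate 1 lay at 26.8 on a first component that separated the genotypes and held 93.4% of the variance, against 36.1 to 37.5 for the other 3 libraries of its group. Results that rest on these libraries are given with and without them. In bulk RNA, fewer cells that express a gene and less of its RNA per cell cannot be told apart.

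The sequences just upstream of 6 members are shown because the largest contrasts of the family sit in them: Serpinh1 and Serpine2 were low in A/A cells, Serpina1a and Serpina1b were near 0 in them, and Serpind1 and Serpinb12 were far higher in them. Each is the 250 bases before the gene's start in the RefSeq promoter table (build GRCm38.p6, the assembly of mm10), read 5′ to 3′ on the gene's strand, with capitals marking matches to the motifs named after them.
Serpinh1 (chr7:99353240-99353489, minus strand): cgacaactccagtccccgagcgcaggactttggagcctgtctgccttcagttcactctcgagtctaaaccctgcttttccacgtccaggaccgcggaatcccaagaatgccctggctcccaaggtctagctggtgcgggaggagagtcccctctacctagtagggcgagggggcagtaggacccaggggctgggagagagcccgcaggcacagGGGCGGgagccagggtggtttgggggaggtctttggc
Serpine2 (chr1:79858666-79858915, minus strand): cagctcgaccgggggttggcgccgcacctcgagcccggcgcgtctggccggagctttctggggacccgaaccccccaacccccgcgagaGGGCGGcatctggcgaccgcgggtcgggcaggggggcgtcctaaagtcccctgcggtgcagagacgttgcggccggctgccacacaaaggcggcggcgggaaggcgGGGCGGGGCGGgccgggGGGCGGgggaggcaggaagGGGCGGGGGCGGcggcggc
Serpina1a (chr12:103863620-103863869, minus strand): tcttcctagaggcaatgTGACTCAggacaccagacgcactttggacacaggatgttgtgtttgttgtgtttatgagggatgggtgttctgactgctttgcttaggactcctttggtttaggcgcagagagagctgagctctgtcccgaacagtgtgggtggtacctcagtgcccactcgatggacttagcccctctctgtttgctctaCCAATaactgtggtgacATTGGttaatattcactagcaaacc
Serpina1b (chr12:103738190-103738439, minus strand): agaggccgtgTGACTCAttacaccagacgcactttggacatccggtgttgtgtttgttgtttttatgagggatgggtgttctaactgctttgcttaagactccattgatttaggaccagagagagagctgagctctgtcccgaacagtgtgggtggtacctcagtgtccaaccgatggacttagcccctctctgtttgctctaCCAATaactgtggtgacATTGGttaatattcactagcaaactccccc
Serpind1 (chr16:17331121-17331370, plus strand): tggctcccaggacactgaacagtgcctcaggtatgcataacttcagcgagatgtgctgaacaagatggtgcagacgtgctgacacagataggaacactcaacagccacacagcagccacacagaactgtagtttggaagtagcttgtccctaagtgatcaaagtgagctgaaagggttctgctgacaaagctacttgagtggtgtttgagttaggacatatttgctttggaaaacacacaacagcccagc
Serpinb12 (chr1:106934199-106934448, plus strand, the first of its listed starts): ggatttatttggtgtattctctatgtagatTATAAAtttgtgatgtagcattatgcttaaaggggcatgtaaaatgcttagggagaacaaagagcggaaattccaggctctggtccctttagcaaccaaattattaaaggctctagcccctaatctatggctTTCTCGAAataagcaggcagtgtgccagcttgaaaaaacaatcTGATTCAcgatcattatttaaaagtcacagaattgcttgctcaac

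These 6 windows differ in make-up. Serpine2 has 78.8% G and C and holds 6 copies of the GC box, GGGCGG, between 13 and 161 bases before the start, and Serpinh1 has 63.6% G and C and 1 copy at 37 bases. Both Serpina1 windows have CCAAT on each strand and an AP-1 sequence, TGANTCA, at 233 bases in Serpina1a and 240 bases in Serpina1b, and their 250 bases are 87.5% identical. For both, the bases after the RefSeq start were not found near the start of a GENCODE transcript of the gene. Their distances thus hold for the RefSeq start only. Serpinb12 has 38.0% G and C, with TATAAA at 220 bases, TTCNNGAA, a form of the heat shock element, at 88 bases and TGANTCA at 45 bases. Serpind1 holds none of the motifs searched.

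Of the 24 members, 20 had an entry in the promoter table, and Serping1, Serpina9 and Serpinb1a were among those with none. These 20 have 24 windows, since 4 members have a pair of listed starts, and both strands were searched. CCAAT was found in 9 of the 24 windows, against 33.8% of all 32851 windows of that length, and GGGCGG in 6, against 32.7%. TGANTCA was found in 8 windows of 7 members, Serpina1a, Serpina1b, Serpina1c, Serpinb2, Serpinb5, Serpinb8 and Serpinb12, against 6.75% of windows. TATAAA was found in 6 windows of 3 members (12.4% of all windows), TTCNNGAA in 4 windows of 3 members (7.17%) and GAANNTTC in 1 window (6.69%). A sequence bound by ATF4, TGATGNAAN, was found in 1 member, Serpinf1, at 31 bases (3.44% of windows). The liver-factor sequences GTTAATNAT (0.737%) and CAAAGTCCA (0.384%) were found in 0 members. A match is only a run of letters, and the 3 Serpina1 windows are copies of each other (87.5% to 91.0% identical). The paired windows of Serpina7 overlap, as do those of Serpinb2. The same TATAAA is thus counted in both windows of each gene, and so is the TGANTCA of Serpinb2.

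The make-up of the family differed between the genotypes. Levels per kilobase of exon were compared within each group, as the mean CPM per kilobase over 4 libraries. Serpinh1 headed the S/S groups, with 428 CPM per kilobase after siChchd10 and 421 after siControl, which was 64.6% and 66.6% of the summed family. It also headed the shRNA groups, with 456 in shAtf4 cells (63.6%) and 481 in shControl cells (66.5%). A/A cells given siChchd10 had Serpinb6b at 89.2, Serpinb6a at 78.5, Serpind1 at 39.6 and Serpinh1 at 20.3 CPM per kilobase. A/A cells given siControl had Serpinb6b at 99.8, Serpinb6a at 65.4 and Serpinh1 at 18.7, so that Serpinh1 made up 5.75% of the family there and 6.6% after siChchd10. Without scaling to length, the family summed to a mean of 1062 CPM in A/A siChchd10, 1160 CPM in A/A siControl, 2026 CPM in S/S siChchd10, 1912 CPM in S/S siControl, 2188 CPM in shAtf4 and 2170 CPM in shControl.

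**Figure D1:**
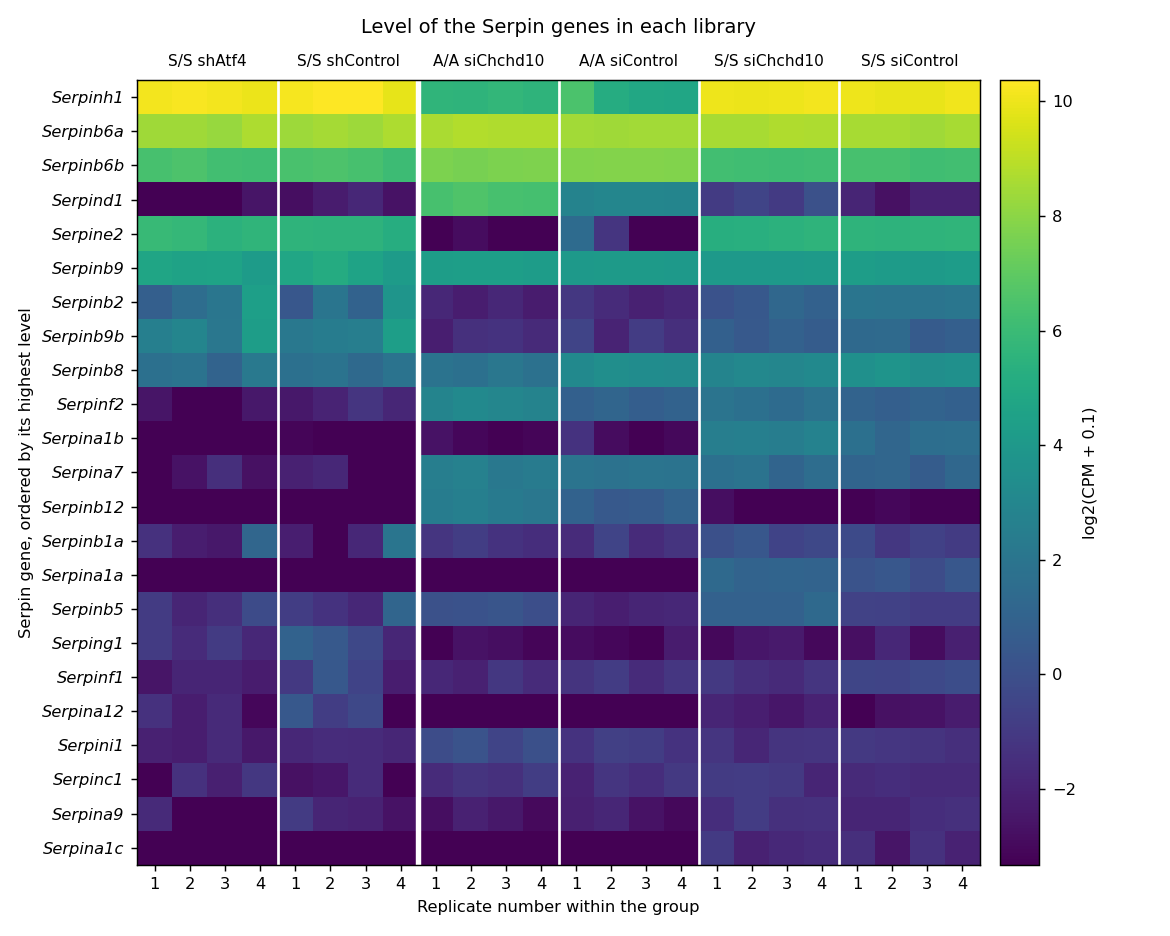
Level of 23 serpins (rows) in each of the 24 libraries (columns, by group), as log2 of CPM plus a pseudocount of 0.1. Serpinh1 is the highest row in every S/S library and drops below Serpinb6a and Serpinb6b in the A/A libraries, where Serpind1 and Serpinb12 stand out and Serpine2 and the Serpina1 rows are at or near the floor.

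A group mean of 1 CPM or more was reached by 18 members in at least 1 group, and 4 members, Serpinh1, Serpinb6a and Serpinb6b among them, reached 100 CPM. The other 6, Serpina12, Serpina1c, Serpina9, Serpinc1, Serpinf1 and Serpini1, stayed under 1 CPM in every group mean. Outside the limit lay 39 Serpin rows, of which 9 had no count in any library. The highest single value outside was 0.914 CPM, for Serpinb6c, which passed in 3 libraries, and just inside was Serpina1c, which passed in exactly 4. Serpina3n, an acute-phase serpin, had 0 counts in the shRNA table and 4 counts in the siRNA table, at most 0.0208 CPM in a library.

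Members were counted against all genes tested in the same fit (edgeR's quasi-likelihood test, Benjamini-Hochberg adjustment over all genes, adjusted p under 0.05). In A/A against S/S cells given siControl, 16 of 22 members were called, 5 higher and 11 lower in A/A, where 70.2% of all genes were called. In A/A against S/S cells given siChchd10, 19 of 22 were called, 7 higher and 12 lower, where 70.5% of all genes were called. Most genes were called in both comparisons, members and others alike. The member median on the log2 scale was -0.43 with siControl, against 0.01 for all genes, and -0.86 with siChchd10, against -0.01 for all genes. A change of 2-fold or more among called genes was seen for 13 members after siControl and 16 after siChchd10, against 21.6% and 22.7% of all genes tested. These members include Serpina1a, Serpina1c and Serpina9, which passed the CPM limit in S/S libraries only, and Serpinb12, which passed it in A/A libraries only. Serpina1b, also among them, passed it in a single A/A library. The rule thus partly set these counts and medians.

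For siChchd10 against siControl, 12 of 22 members were called in A/A cells, 8 higher and 4 lower, where 53.7% of all genes were called, and 10 of 22 in S/S cells, 7 higher and 3 lower, where 28.0% of all genes were called. The member medians were 0.00 in A/A cells (0.03 over the 20 members with counts there) and 0.32 in S/S cells, against -0.01 and 0.00 for all genes. The difference between these effects, tested as an interaction (the effect in A/A minus that in S/S), was called for 8 of 22 members, 4 higher and 4 lower, where 35.6% of all genes were called. For shAtf4 against shControl, 0 of 11 members tested were called, where 0.538% of all genes were called. That fit left out the replicate number, although same-numbered shRNA libraries deviated together. With the replicate number as a block, 3 of 11 members were called, where 20.2% of all genes were called. In the fits without a block, at least 1 of the 6 comparisons was called for 21 of the 24 members. Serpina12 was tested in no comparison and Serping1 in the shRNA comparison only. That share was not computed over all genes, of which the genotype comparisons called 70.2% with siControl and 70.5% with siChchd10.

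The collagen chaperone was the most abundant serpin of S/S cells and was far lower in A/A cells. Serpinh1 (Hsp47; chromosome 7, 99345375 to 99353239) binds the triple helix of procollagen in the endoplasmic reticulum and is needed for its folding. It had 49.5, 47.4, 53.8 and 47.9 CPM in A/A siChchd10 and 90.9, 35.1, 29.2 and 27.2 CPM in A/A siControl, against 1028, 994, 1052 and 1109 CPM in S/S siChchd10 and 1059.7, 977, 979 and 1098 CPM in S/S siControl. Every A/A library was far below every S/S library. A/A siControl replicate 1 was the highest A/A library, at 8.84% of the S/S siControl mean against 2.64% to 3.41% in the other 3.

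Serpinh1 was lower in A/A cells given siControl than in S/S cells given siControl, at -4.49 on the log2 scale (SE 0.332, adjusted p = 3.71e-08) and was lower in those given siChchd10, at -4.40 (SE 0.330, adjusted p = 4.04e-08). Without A/A siControl replicate 1 the first value was -5.07. The effect of siChchd10 in A/A cells depended on that library: the log2 fold change was 0.12 with it (SE 0.305, adjusted p = 0.772) and 0.72 without it (SE 0.0691, adjusted p = 2.39e-09). The S/S value was 0.02 (adjusted p = 0.965). The interaction was 0.09 with that library (adjusted p = 0.891) and 0.69 without it (adjusted p = 1.20e-06).

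Of 19 tested genes that mature procollagen or encode collagens, 7 were higher and 8 lower in A/A against S/S cells given siControl, with a median of 0.03 against 0.01 for all genes. The largest falls were Col5a1, a fibrillar collagen chain, at -4.77, and Fkbp10, a prolyl isomerase that works beside Serpinh1, at -2.99. The largest rises were the basement membrane chains Col4a2 at 0.85 and Col4a1 at 0.74. After siChchd10 in A/A cells 5 rose and 11 fell, with a median of -0.18 against -0.01 for all genes. Col5a1 fell by 2.12 and the lysyl hydroxylase Plod2 by 1.21, and the prolyl hydroxylase subunit P4hb rose by 0.57 and Crtap, a subunit of the prolyl 3-hydroxylase complex, by 0.27. Col1a1, the highest of the fibroblast markers, averaged 2.23 CPM in A/A siChchd10 and 4.84 CPM in A/A siControl, against 6.0 CPM in S/S siChchd10 and 3.92 CPM in S/S siControl. Of all genes, 70.2% were called between genotypes given siControl and 53.7% after siChchd10 in A/A cells.

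**Figure D2:**
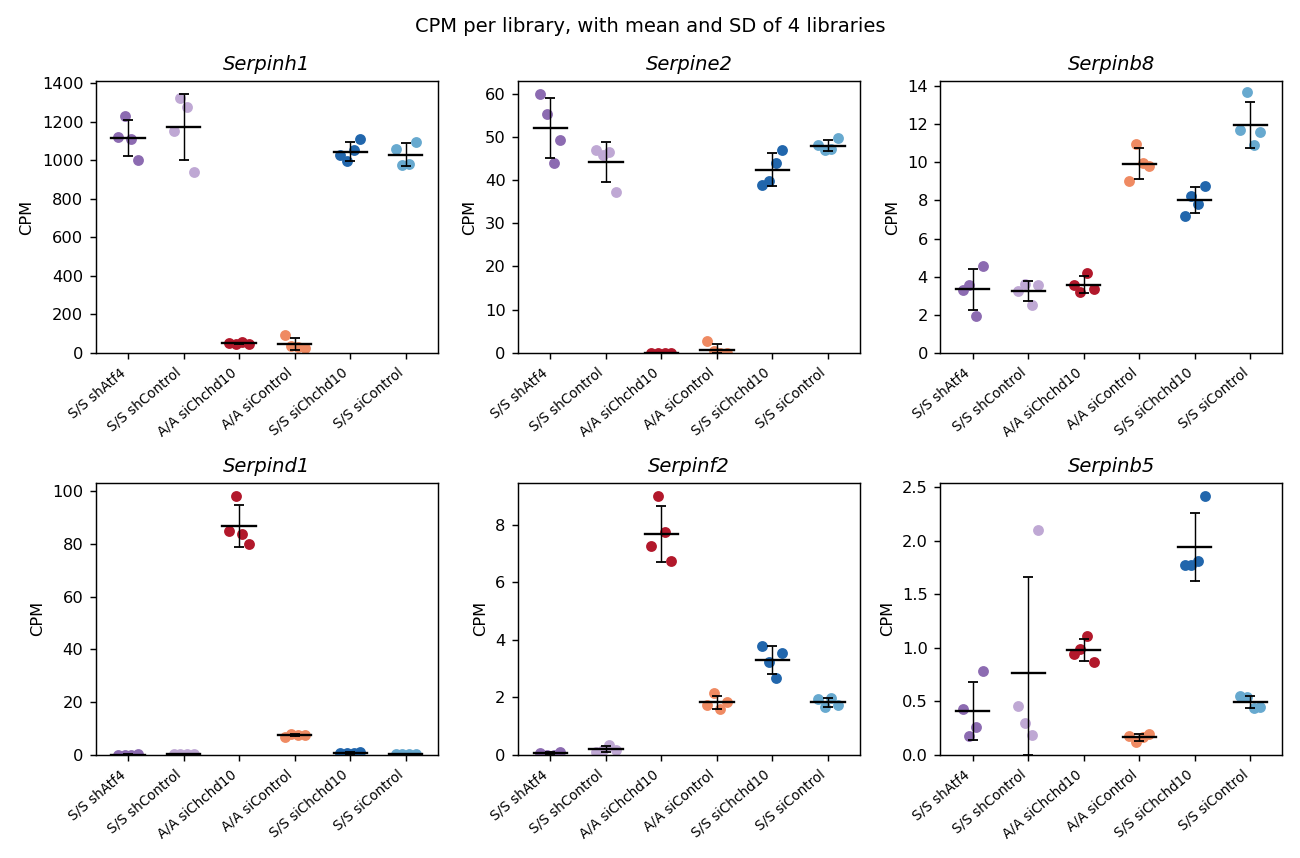
CPM of Serpinh1, Serpine2, Serpinb8, Serpind1, Serpinf2 and Serpinb5 (1 panel each) by group, with 1 point per library, a line at the mean and bars of 1 SD over 4 libraries, cut at 0. Serpinh1 and Serpine2 sit far lower in all 8 A/A libraries than in the S/S libraries, Serpind1 is highest in A/A siChchd10, and Serpinb8 lies lower after siChchd10 than after siControl in both genotypes.

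The inhibitors of plasminogen activation changed in different directions. These serpins act at successive steps: Serpine2 and Serpinb2 inhibit an activator that turns plasminogen into plasmin, and Serpinf2 inhibits plasmin itself.

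Serpine2 (protease nexin-1; chromosome 1, 79794317 to 79858665), which inhibits thrombin and urokinase, was near 0 in A/A cells. It had 0, 0.0388, 0 and 0 CPM in A/A siChchd10 (2 counts in all) and 2.63, 0.336, 0 and 0 CPM in A/A siControl (156 counts in all), against 38.9, 39.8, 43.9 and 47.1 CPM in S/S siChchd10 and 48.0, 46.9, 47.2 and 49.6 CPM in S/S siControl. The A/A and S/S libraries did not overlap, and 139 of the 156 A/A siControl counts lay in replicate 1. With siChchd10 the level in A/A cells was 4741-fold lower than in S/S cells, with a 95% counting interval from 1312 to 39160, which covers counting error only. With siControl the difference was -5.94 (SE 0.465, adjusted p = 6.84e-08), or -8.66 without A/A siControl replicate 1. Within A/A cells siChchd10 against siControl was called (adjusted p = 0.0245, 87.6-fold lower, counting interval 23.9 to 730 on 2 and 156 counts). Without A/A siControl replicate 1 the adjusted p was 0.0636, and without any 1 of the A/A siChchd10 libraries it was 0.0512 to 0.0696. The interaction was called as well (adjusted p = 0.0487), but not when any library other than A/A siControl replicates 2 to 4 was left out (adjusted p = 0.0607 to 0.116). The S/S value was -0.18 (adjusted p = 0.711), and 0.0211 was the adjusted p in a fit on those 8 libraries alone.

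Serpinb2 (PAI-2), an inhibitor of urokinase that is mostly kept inside cells, had 0.184, 0.116, 0.192 and 0.105 CPM in A/A siChchd10 and 0.359, 0.217, 0.143 and 0.193 CPM in A/A siControl. The S/S libraries had 0.979, 1.28, 2.32 and 1.82 CPM after siChchd10 and 3.95, 3.76, 3.82 and 4.05 CPM after siControl. The A/A groups overlapped each other, and both S/S groups stood clear of them and of each other. It fell by 1.28 after siChchd10 in S/S cells (SE 0.184, adjusted p = 4.15e-06), was at -0.67 in A/A cells (adjusted p = 0.169), and was lower in A/A than in S/S cells given siControl, at -4.06 (SE 0.248, adjusted p = 1.68e-14). With siChchd10 the genotype difference was -3.45.

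Serpinf2 (alpha-2-antiplasmin; chromosome 11, 75431736 to 75439501), the fast inhibitor of plasmin that the liver secretes, had 7.25, 9.02, 7.77 and 6.75 CPM in A/A siChchd10 against 1.72, 2.13, 1.59 and 1.84 CPM in A/A siControl. Its S/S values were 3.79, 3.23, 2.65 and 3.53 CPM after siChchd10 against 1.94, 1.67, 1.98 and 1.73 CPM after siControl. The siControl groups overlapped across genotypes, and each siChchd10 group lay above its siControl group. It rose by 2.07 in A/A cells (SE 0.123, adjusted p = 5.14e-14) and by 0.85 in S/S cells (SE 0.132, adjusted p = 1.17e-05). The interaction was 1.22 (SE 0.183, adjusted p = 6.79e-06). The genotype difference was 1.22 with siChchd10 (adjusted p = 1.30e-10), and no difference passed with siControl (adjusted p = 0.994). Serpinf1, its nearest member on that chromosome, lies 9.11 kb away.

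Serpini1 (neuroserpin), a secreted inhibitor of tissue plasminogen activator known from neurons, was low throughout. It lay between 0.596 and 1.03 CPM in A/A siChchd10 against 0.300 to 0.494 CPM in A/A siControl, and between 0.179 and 0.334 CPM in S/S siChchd10 against 0.256 to 0.378 CPM in S/S siControl. The A/A groups did not overlap, and the S/S groups did. It rose by 1.10 after siChchd10 in A/A cells (SE 0.25, adjusted p = 5.17e-04), with an interaction of 1.27 (SE 0.394, adjusted p = 0.0125). With siChchd10 it was higher in A/A than in S/S cells by 1.53 (adjusted p = 7.63e-06).

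Among 9 tested genes of plasminogen activation outside the family, 1 rose and 7 fell after siChchd10 in A/A cells, with a median of -0.19 against -0.01 for all genes, and 3 rose and 0 fell in S/S cells. In A/A cells urokinase (Plau) fell by 0.51 and its receptor Plaur by 0.42, and the plasminogen receptor Plgrkt rose by 0.95. Between genotypes given siControl 2 were higher and 5 lower in A/A cells, among them the serpin-protease clearance receptor Vldlr at -1.65 and Plau at -1.19. Of all genes, 53.7% were called after siChchd10 in A/A cells, 28.0% in S/S cells and 70.2% between genotypes given siControl.

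The plasma serpins of clotting and complement were led by Serpind1 (heparin cofactor II; chromosome 16, 17331371 to 17343574), which inhibits thrombin and is made mainly by the liver. It had 85.0, 98.3, 83.9 and 79.9 CPM in A/A siChchd10 against 6.83, 7.67, 7.60 and 7.43 CPM in A/A siControl. The S/S libraries had 0.417, 0.598, 0.409 and 0.939 CPM after siChchd10 against 0.165, 0.0555, 0.152 and 0.149 CPM after siControl. The 4 groups did not overlap. It rose 11.8-fold after siChchd10 in A/A cells (log2 3.56, SE 0.0837, adjusted p = 2.63e-20) and by 2.18 in S/S cells (SE 0.346, adjusted p = 2.77e-05). The interaction was 1.37 (SE 0.451, adjusted p = 0.0198), and 0.0695 to 0.0756 were its adjusted p-values when S/S siControl replicate 1, 3 or 4 was left out. Against S/S cells, A/A cells were higher by 7.2 with siChchd10 (adjusted p = 6.54e-25) and by 5.83 with siControl (SE 0.198, adjusted p = 1.70e-18).

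Serpind1 lies on the opposite strand within Pi4ka, with no shared exon, and the strand setting of the counting is not given in the sources used here. Pi4ka had 120 to 131 CPM in A/A siChchd10, 105 to 111 CPM in A/A siControl, 50.9 to 57.3 CPM in S/S siChchd10 and 44.3 to 48.8 CPM in S/S siControl, so it too was higher in A/A cells, by 1.19 with siControl, and rose by 0.24 after siChchd10 there. The 7 hepatocyte-type markers summed to 2195 to 2445 CPM in A/A siChchd10, 842 to 928 CPM in A/A siControl, 445 to 522 CPM in S/S siChchd10 and 315 to 379 CPM in S/S siControl, and to at most 7.30 CPM in the shRNA libraries. At a mean of 1 CPM or more were 6, 5, 6 and 6 of the 7 in these siRNA groups, with Ttr the highest in A/A siChchd10 and Hnf4a the highest in the other 3. The sum had the same order of groups as Serpind1 but not as Serpinf2, which averaged 1.82 CPM in A/A siControl and 1.83 CPM in S/S siControl. Single markers also departed from it: Fga averaged 0.832 CPM in A/A siControl against 9.13 CPM in S/S siControl, with no overlap, and 12.95 CPM in A/A siChchd10 against 21.5 CPM in S/S siChchd10, with overlap. Fgb averaged 11.97 CPM in A/A siControl against 37.3 CPM in S/S siControl, with no overlap, and 57.8 CPM in A/A siChchd10 against 65.8 CPM in S/S siChchd10, with overlap. Alveolar type 2 markers summed to 1399 to 1647 CPM in A/A siChchd10, 521 to 579 CPM in A/A siControl, 154 to 188 CPM in S/S siChchd10 and 138 to 149 CPM in S/S siControl. The part of either marker set in the serpin values was not tested.

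Serpinc1 (antithrombin), the other thrombin inhibitor of plasma, did not exceed 0.460 CPM in any library and passed in no comparison. Serping1, the C1 inhibitor that stops the first proteases of complement and of the contact system, did not exceed 0.185 CPM in any siRNA library. Of 10 tested coagulation and contact genes outside the family, 7 rose and 3 fell after siChchd10 in A/A cells, with a median of 2.03 against -0.01 for all genes. The kininogen Kng2 rose by 6.70 and plasma kallikrein Klkb1 by 3.09, while the thrombin cofactor Thbd fell by 0.88 and the protein C receptor Procr by 0.76. Of the same genes 4 rose and 2 fell in S/S cells, with Kng2 at 2.55 and prothrombin (F2) at 2.53. Of 9 complement proteases and factors, 7 were higher and 2 lower in A/A against S/S cells given siControl, with a median of 2.09 against 0.01. C2 was higher by 5.25 and C1s1 by 3.15, and factor D (Cfd) was at -2.03 and Masp2 at -1.52. After siChchd10 in A/A cells 4 rose and 2 fell. Of all genes, 53.7% were called after siChchd10 in A/A cells, 28.0% in S/S cells and 70.2% between genotypes given siControl.

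The Serpina1 genes encode alpha-1-antitrypsin, which protects the lung from neutrophil elastase, in several near-identical mouse copies. They were read almost only in S/S cells of the siRNA table. Serpina1b had 0.0613, 0.0194, 0 and 0.0131 CPM in A/A siChchd10 (5 counts) and 0.303, 0.0395, 0 and 0.0214 CPM in A/A siControl (19 counts), against 5.77, 5.82, 5.51 and 6.68 CPM in S/S siChchd10 and 3.17, 2.17, 3.02 and 3.05 CPM in S/S siControl. Serpina1a had 0 counts in all 8 A/A libraries, against 2.5, 1.93, 2.03 and 1.94 CPM in S/S siChchd10 and 1.04, 1.22, 0.817 and 1.19 CPM in S/S siControl. Serpina1c had 0 counts in A/A cells too, against 0.140 to 0.396 CPM in S/S siChchd10 and 0.0741 to 0.285 CPM in S/S siControl. For each of the 3 copies every S/S library lay above every A/A library. Serpina1a and Serpina1c passed the CPM limit in S/S libraries only, and in A/A cells Serpina1b passed it in siControl replicate 1 only. The rule thus partly set this for all 3 copies.

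Between genotypes given siControl, Serpina1b was lower in A/A cells, at -4.86 (adjusted p = 1.74e-10), or -6.95 without A/A siControl replicate 1. The level of Serpina1a was at least 70.8-fold lower (adjusted p = 4.22e-12) and that of Serpina1c at least 12.5-fold lower (adjusted p = 2.02e-05), taking 3 counts over the group as the floor. Given siChchd10, Serpina1b was 266-fold lower on 5 and 1172 counts (counting interval 114 to 819), Serpina1a at least 156-fold lower and Serpina1c at least 17.8-fold lower. Within S/S cells, Serpina1b rose by 1.06 after siChchd10 (SE 0.205, adjusted p = 4.52e-04, or 0.130 with DESeq2) and Serpina1a rose by 0.97 (SE 0.188, adjusted p = 3.80e-04). In A/A cells Serpina1b had 5 counts after siChchd10 and 19 after siControl and did not pass (adjusted p = 0.0890, or 0.0457 with DESeq2). A/A siControl replicate 1 held 16 of the 19, and without it the log2 fold change was 0.12 (adjusted p = 0.931). The interaction for Serpina1b was -3.04 (SE 0.973, adjusted p = 0.0190), with -0.94 without A/A siControl replicate 1 (adjusted p = 0.574) and -2.77 without A/A siChchd10 replicate 4 (adjusted p = 0.0553). The 5 Serpina1 copies are 91.4% to 96.7% identical over their coding sequence and share 22.1% to 62.7% of 75-base windows, so how counts were divided among them is uncertain.

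Other secreted members of clade a were low. Serpina7, the thyroxine-binding globulin on the X chromosome, had 5.66, 6.48, 4.41 and 5.18 CPM in A/A siChchd10 and 3.74, 3.54, 3.78 and 3.66 CPM in A/A siControl, against 3.23, 3.57, 2.01 and 2.84 CPM in S/S siChchd10 and 2.03, 2.22, 1.5 and 2.28 CPM in S/S siControl. The A/A groups did not overlap, and the S/S groups did. It rose by 0.56 after siChchd10 in A/A cells (SE 0.137, adjusted p = 0.00111) and by 0.54 in S/S cells (SE 0.158, adjusted p = 0.0113). The S/S call was lost without S/S siControl replicate 3 (0.41, adjusted p = 0.0585) and without S/S siChchd10 replicate 2 (0.42, adjusted p = 0.0645). Against S/S cells, A/A cells were higher by 0.90 with siChchd10 and by 0.88 with siControl (SE 0.154, adjusted p = 1.23e-05). Serpina9, a serpin of germinal-centre B cells in humans, did not exceed 0.439 CPM and was lower in A/A cells, at -2.17 with siChchd10 (adjusted p = 1.49e-04) and at -1.08 with siControl (adjusted p = 0.0423). The siControl call was lost with DESeq2 (adjusted p = 0.0522) and without S/S siControl replicate 3 or 4 or A/A siControl replicate 3 or 4 (adjusted p = 0.0927 to 0.148). Serpina9 passed the CPM limit in S/S libraries only, so the rule partly set its genotype difference. Serpina12 (vaspin) had 0 counts in A/A cells and at most 0.167 CPM in S/S cells of the siRNA table, and was not tested there.

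Serpinf1 (PEDF; chromosome 11, 75410029 to 75422623), a secreted member that inhibits no protease and restrains blood vessel growth, had 0.184, 0.136, 0.362 and 0.223 CPM in A/A siChchd10 and 0.322, 0.435, 0.225 and 0.343 CPM in A/A siControl. Its S/S values were 0.375, 0.259, 0.214 and 0.334 CPM after siChchd10 against 0.614, 0.611, 0.722 and 0.832 CPM after siControl. The S/S siControl libraries stood above all the others. It fell by 1.23 after siChchd10 in S/S cells (SE 0.281, adjusted p = 0.00127), was at -0.56 in A/A cells (adjusted p = 0.143), and was lower in A/A than in S/S cells given siControl, at -1.06 (SE 0.275, adjusted p = 0.00114).

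**Figure D3:**
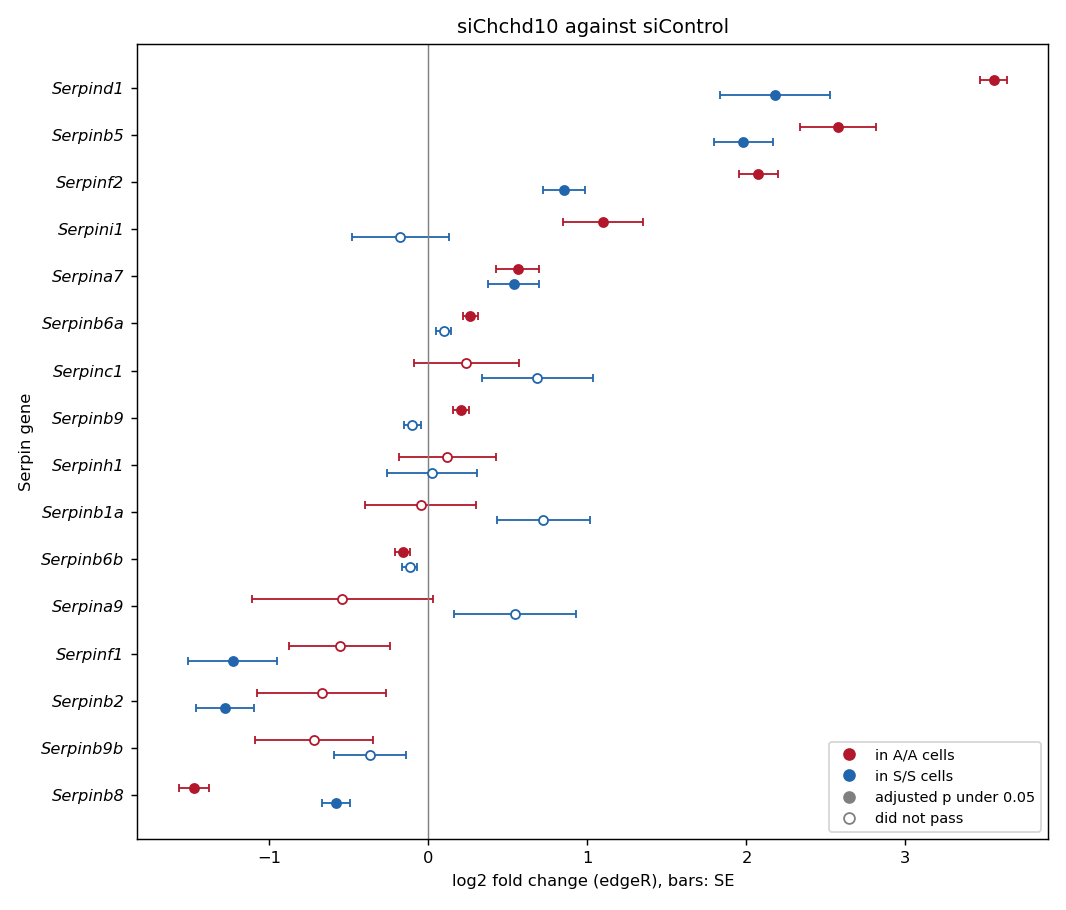
Log2 fold change of siChchd10 over siControl in A/A cells and in S/S cells for 16 members, with bars of 1 SE and filled points where adjusted p was under 0.05. Serpina1a, Serpina1b, Serpina1c, Serpinb12 and Serpine2, which had few or no counts in a group, are left out. Serpind1, Serpinb5 and Serpinf2 are raised in both genotypes, and Serpinb8 lies below 0 in both.

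The intracellular clade b serpins ranged in the siRNA table from Serpinb6a, at 342 CPM or more in every library, to Serpinb1a, at 1.22 CPM or less. They lie in 2 clusters, on chromosome 1 (106861175 to 107608978, 12 Serpin rows, 4 of them members) and on chromosome 13 (32842092 to 34002794, 16 rows, 5 of them members). Of the 9 members of clade b, 3 were higher and 5 lower in A/A against S/S cells given siChchd10, and 2 were higher and 4 lower in those given siControl, where 70.5% and 70.2% of all genes were called.

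Serpinb6a, an inhibitor of cathepsin G, had 403, 446, 429 and 421 CPM in A/A siChchd10 and 359, 348, 355 and 353 CPM in A/A siControl, against 384, 378, 432 and 414 CPM in S/S siChchd10 and 387, 388, 342 and 386 CPM in S/S siControl. The A/A groups did not overlap, and the S/S groups did. It rose by 0.26 after siChchd10 in A/A cells (SE 0.0470, adjusted p = 2.72e-05), while 0.10 in S/S cells (adjusted p = 0.133) and the interaction of 0.17 (adjusted p = 0.0506) did not pass. The interaction passed under 11 of 21 alternatives, DESeq2 and RLE size factors among them. The genotype differences of 0.08 with siChchd10 and -0.09 with siControl did not pass. Its exons overlap those of Nqo2, Ripk1 and 1110046J04Rik on the other strand, so without a known strand setting its counts are uncertain.

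Serpinb6b lies in the same cluster as Serpinb6a and is 81.2% identical to it over the coding sequence, with no shared 75-base window. It had 202, 192, 200.04 and 213 CPM in A/A siChchd10 and 221, 231, 230.04 and 222 CPM in A/A siControl. Its S/S values were 75.5, 72.9, 69.3 and 72.0 CPM after siChchd10 and 84.7, 83.6, 71.5 and 74.7 CPM after siControl. Every A/A library was above every S/S library, and within A/A cells the groups did not overlap. It was higher in A/A cells by 1.48 with siChchd10 and by 1.52 with siControl (SE 0.0477, adjusted p = 2.78e-21). It fell by 0.16 after siChchd10 in A/A cells (SE 0.0460, adjusted p = 0.00395) and was at -0.12 in S/S cells (adjusted p = 0.0667).

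Serpinb9, which shields cells from granzyme B, had 19.6, 20.4, 20.5 and 19.1 CPM in A/A siChchd10 and 17.2, 17.3, 17.7 and 16.9 CPM in A/A siControl, against 17.1, 17.2, 16.5 and 17.5 CPM in S/S siChchd10 and 19.4, 17.9, 17.4 and 18.6 CPM in S/S siControl. The A/A siChchd10 libraries lay above those of A/A siControl and of S/S siChchd10, and the S/S groups overlapped. It rose by 0.20 after siChchd10 in A/A cells (SE 0.0508, adjusted p = 0.00120), was at -0.10 in S/S cells (adjusted p = 0.150), and the interaction was 0.31 (SE 0.0723, adjusted p = 0.00145). With siChchd10 it was higher in A/A than in S/S cells by 0.22 (adjusted p = 3.86e-04), and with siControl it was at -0.09 (adjusted p = 0.130). Serpinb9b, 85.4% identical to it in coding sequence, had 0.123, 0.272, 0.298 and 0.210 CPM in A/A siChchd10 and 0.605, 0.158, 0.449 and 0.257 CPM in A/A siControl. The S/S libraries had 1.71, 1.3, 1.83 and 1.46 CPM after siChchd10 and 2.5, 2.54, 1.43 and 1.69 CPM after siControl. Every A/A library was below every S/S library. The A/A against S/S difference was -2.80 with siChchd10 and -2.45 with siControl (SE 0.274, adjusted p = 8.25e-09).

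Serpinb8, an inhibitor of the proprotein convertase furin in human cells, was lower after siChchd10 in both genotypes. It had 3.57, 3.18, 4.21 and 3.38 CPM in A/A siChchd10 against 9.02, 11, 9.95 and 9.79 CPM in A/A siControl. The S/S libraries had 7.19, 8.26, 7.83 and 8.78 CPM after siChchd10 against 11.7, 13.7, 10.9 and 11.6 CPM after siControl. Each siChchd10 group lay below its siControl group. It fell by 1.48 in A/A cells (SE 0.0950, adjusted p = 3.09e-13) and by 0.58 in S/S cells (SE 0.0870, adjusted p = 7.25e-06). The interaction was -0.90 (SE 0.129, adjusted p = 3.96e-06). Against S/S cells, A/A cells were lower, at -1.17 with siChchd10 and at -0.27 with siControl (SE 0.0854, adjusted p = 0.00637).

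Serpinb5 (maspin), which inhibits no protease and is known as a suppressor of tumour invasion, had 0.939, 0.989, 1.11 and 0.867 CPM in A/A siChchd10 against 0.170, 0.119, 0.163 and 0.193 CPM in A/A siControl. Its S/S values were 1.77, 1.77, 1.81 and 2.42 CPM after siChchd10 against 0.543, 0.537, 0.437 and 0.448 CPM after siControl. The 4 groups did not overlap. It rose by 2.57 in A/A cells (SE 0.240, adjusted p = 5.28e-10) and by 1.98 in S/S cells (SE 0.185, adjusted p = 2.35e-09). The interaction of 0.59 did not pass (adjusted p = 0.154). It was lower in A/A against S/S cells, at -1.0 with siChchd10 (adjusted p = 4.53e-06) and at -1.59 with siControl (SE 0.269, adjusted p = 6.13e-06).

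Serpinb12, an inhibitor of trypsin-like proteases in humans, had 5.23, 5.92, 4.92 and 4.2 CPM in A/A siChchd10 and 1.87, 1.3, 1.43 and 1.97 CPM in A/A siControl, against 2 counts over the 4 S/S siChchd10 libraries and 1 count over the 4 S/S siControl libraries. The A/A groups did not overlap each other or the S/S groups. Serpinb12 passed the CPM limit in A/A libraries only, so the rule partly set its genotype difference. It was 491-fold higher in A/A against S/S cells given siChchd10 (counting interval 136 to 4058 on 1112 and 2 counts) and 322-fold higher in those given siControl (57.3 to 12740 on 327 and 1 counts, adjusted p = 1.01e-14). It rose by 1.62 after siChchd10 in A/A cells (SE 0.160, adjusted p = 1.60e-09). It and Serpinb5, Serpinb2 and Serpinb8 lie in the same cluster on chromosome 1, where after siChchd10 in A/A cells Serpinb12 and Serpinb5 rose and Serpinb8 fell.

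Serpinb1a, an inhibitor of neutrophil elastase and related proteases, had 0.327, 0.466, 0.298 and 0.25 CPM in A/A siChchd10 and 0.227, 0.593, 0.225 and 0.321 CPM in A/A siControl, against 0.917, 1.22, 0.585 and 0.689 CPM in S/S siChchd10 and 0.756, 0.370, 0.532 and 0.427 CPM in S/S siControl. With siChchd10 the A/A and S/S libraries did not overlap, and with siControl they did. It was lower in A/A cells with siChchd10 (log2 -1.36, adjusted p = 2.72e-04), and its value of 0.72 after siChchd10 in S/S cells did not pass (adjusted p = 0.0672).

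**Figure D4:**
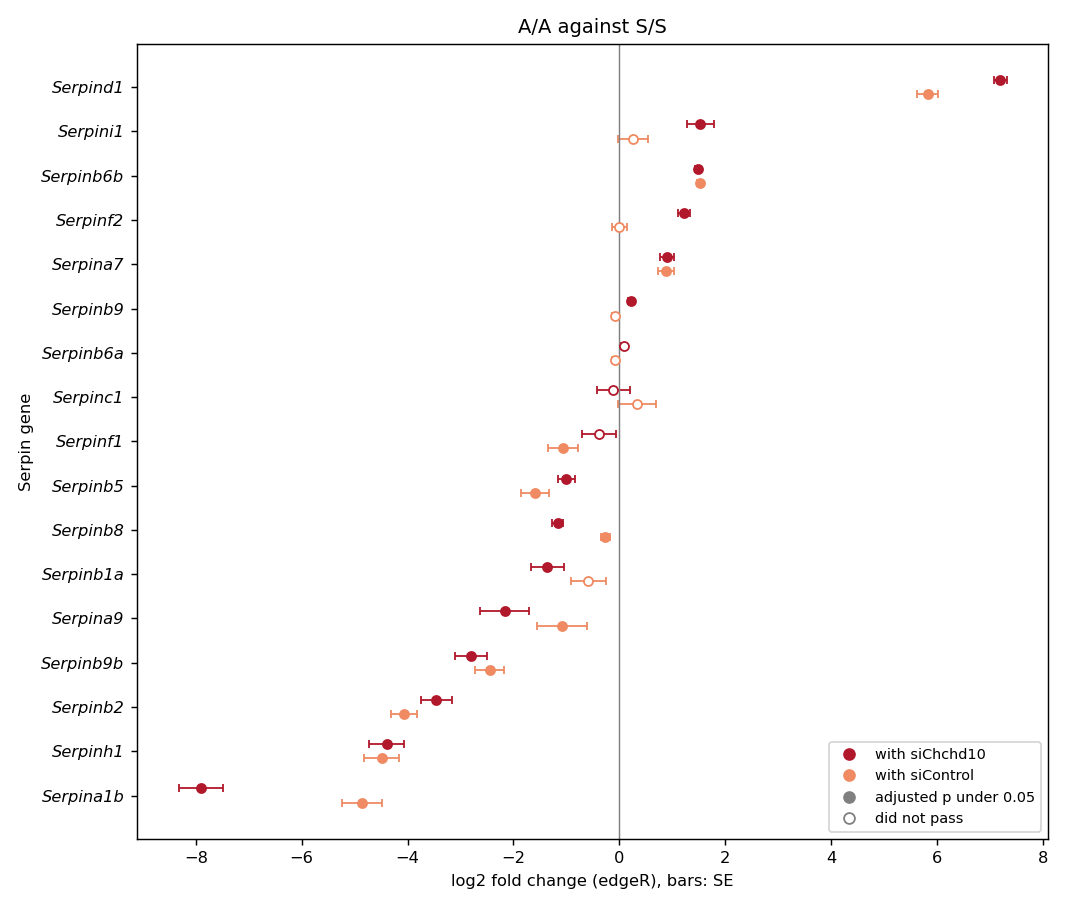
Log2 fold change of A/A over S/S cells given siChchd10 and given siControl for 17 members, with bars of 1 SE and filled points where adjusted p was under 0.05. Serpina1a, Serpina1c, Serpinb12 and Serpine2, which had few or no counts in a group, are left out. Serpind1 lies highest, at 7.2 and 5.83, and Serpinh1 among the lowest, at -4.40 and -4.49.

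Serpins work against proteases, and the proteases measured beside them moved in both directions. Of 11 cathepsins tested, 10 rose and 0 fell after siChchd10 in A/A cells, with a median of 0.61 against -0.01 for all genes, led by Ctsh at 2.23 and Ctsf at 0.91, and 6 rose and 1 fell in S/S cells. Of all genes, 53.7% were called in A/A cells and 28.0% in S/S cells. Of 12 membrane-anchored and secreted epithelial serine proteases, 5 rose and 3 fell in A/A cells, where Tmprss4 was at 4.56, Prss8 at 3.44, Prss22 at -0.91 and Htra1 at -0.83, and 5 rose and 3 fell in S/S cells, led by matriptase (St14) at 2.21. Of the 8 granule proteases and granule proteins of neutrophils and lymphocytes, 1 was tested in the siRNA table and 0 in the shRNA table. Of 20 protease inhibitors outside the serpin fold, 12 rose and 4 fell in A/A cells, with a median of 0.63 against -0.01 for all genes. The inter-alpha-trypsin inhibitor chains Itih4 and Itih3 rose by 3.74 and 3.57, and Tfpi, the inhibitor of the tissue factor pathway, fell by 1.04 and the metalloprotease inhibitor Timp1 by 0.72.

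In S/S cells with the Atf4 shRNA the calls against the scramble control depended on the pairing of the libraries: 0 of 11 members passed without the replicate number as a block and 3 of 11 with it. The abundant serpins differed from the control by less than the libraries of a group differed among themselves. Serpinh1 had 1120.2, 1229, 1108 and 1000.4 CPM in shAtf4 against 1155, 1325, 1276 and 939.9 CPM in shControl (log2 -0.08, adjusted p = 0.887). Serpine2 had 59.9, 55.2, 44.0 and 49.2 CPM in shAtf4 against 47.1, 45.9, 46.4 and 37.3 CPM in shControl (0.24, adjusted p = 0.569). The groups overlapped for both. Libraries of the same number deviated together (correlations of 0.373 to 0.871 over genes), most clearly replicate 4. Replicate 3 of shAtf4 was as close to replicate 2 of shControl (0.383). The block called 20.2% of all genes and, among the 3 members, Serping1 at -1.44 (adjusted p = 0.0294) and Serpine2 at 0.24 (adjusted p = 0.0432). Without the block, the count of 0 members called was 1 of 11 at an unadjusted p under 0.05 and 0 with DESeq2, and over all genes 1549 passed that unadjusted p.

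Among the 11 members tested, the largest difference lay in Serping1. It had 0.427, 0.225, 0.430 and 0.192 CPM in shAtf4 (31 counts) against 1.91, 1.34, 0.696 and 0.175 CPM in shControl (247 counts). In replicates 1 to 3 shControl was above every shAtf4 library, and in replicate 4 both were low. The log2 fold change was -1.85 (SE 0.631, adjusted p = 0.318), with -1.90 without replicate 4 of both groups (adjusted p = 0.0260) and -2.15 without shControl replicate 4 alone (adjusted p = 0.0392). Ddx3y, a gene of the Y chromosome, was at 2.02% of its shControl level in shAtf4 cells, and the part of that difference between the cultures in these values was not tested.

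The clade b members of the shRNA table differed more between replicates than between groups. Serpinb2 had 1.64, 2.93, 4.08 and 21.4 CPM in shAtf4 against 1.21, 3.92, 1.87 and 14.3 CPM in shControl, and Serpinb9b had 5.84, 7.54, 4.17 and 19.6 CPM against 4.43, 5.20, 5.68 and 20.5 CPM in the same groups. Replicate 4 was the highest in both groups for both genes. Serpinb1a had 2.20 CPM in shAtf4 replicate 4 and 3.86 CPM in shControl replicate 4, and at most 0.285 and 0.183 CPM in the other libraries of those groups. Serpinb5 had 0.785 CPM in shAtf4 replicate 4 and 2.10 CPM in shControl replicate 4, and at most 0.427 and 0.454 CPM in the others.

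The other members of that table were even or scarce. Serpinb6a lay between 311 and 419 CPM in shAtf4 and between 327 and 419 CPM in shControl, Serpinb6b between 73.3 and 93.2 CPM and between 67.8 and 94.8 CPM, Serpinb9 between 18 and 26 CPM and between 17.9 and 34.9 CPM, and Serpinb8 between 1.93 and 4.56 CPM and between 2.49 and 3.64 CPM, with shAtf4 given before shControl for each. The ranges overlapped for all of them. Serpinf1 had 0.0712, 0.169, 0.172 and 0.105 CPM in shAtf4 (14 counts) against 0.385, 1.26, 0.586 and 0.117 CPM in shControl (127 counts) and was under the filter on low counts. With no filter it was at -2.24 (adjusted p = 0.285). Serpina12 had 12 counts in shAtf4 and 140 in shControl and was also under the filter. It was at -2.26 with no filter (adjusted p = 0.619) and at -2.01 with replicate 4 of both groups left out (adjusted p = 0.0433). With no filter Serpina9 was at -2.59 (adjusted p = 0.623) and Serpinf2 at -1.85 (adjusted p = 0.648), so these 4 scarce members lay further from 0 than Serping1, at -1.83 (adjusted p = 0.387). Serpind1, Serpinf2, Serpina1 and Serpinb12, which were prominent in the siRNA table, had at most 28 counts in either shRNA group.

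**Figure D5:**
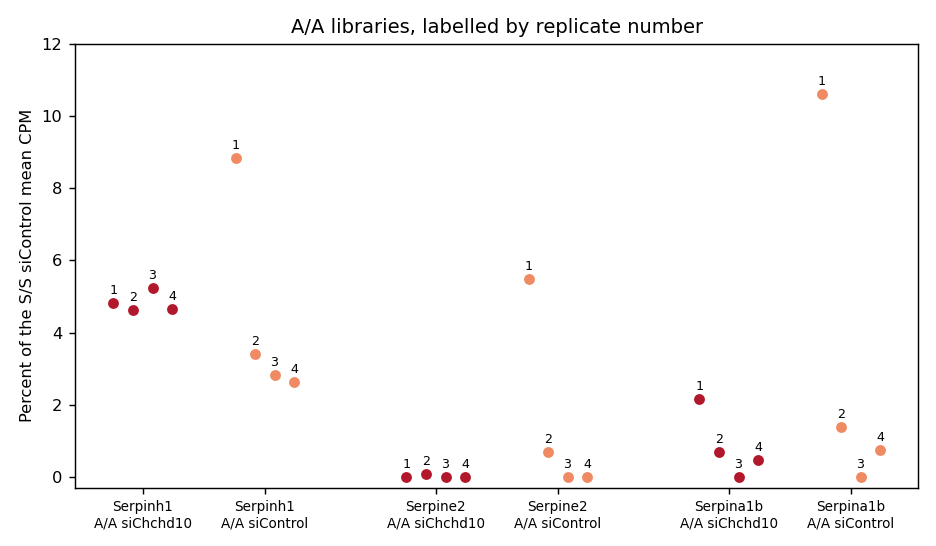
Level of Serpinh1, Serpine2 and Serpina1b in each A/A library (points, numbered by replicate) as a percentage of the mean CPM of the 4 S/S siControl libraries, for A/A siChchd10 and A/A siControl. A/A siControl replicate 1 lies apart for Serpinh1 at 8.84%, Serpine2 at 5.48% and Serpina1b at 10.6%.

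The library A/A siControl replicate 1 held more RNA of several serpins that were lower in A/A than in S/S cells. As a percentage of the S/S siControl mean, the 4 A/A siControl libraries were at 8.84%, 3.41%, 2.84% and 2.64% for Serpinh1, at 5.48%, 0.701%, 0 and 0 for Serpine2 and at 10.6%, 1.39%, 0 and 0.751% for Serpina1b. Replicate 1 was the highest for each. The A/A siChchd10 libraries were at 4.61% to 5.23% for Serpinh1, at most 0.0809% for Serpine2 and at most 2.15% for Serpina1b. Serpina1a and Serpina1c had 0 counts in A/A siControl replicate 1 as in the other A/A libraries. That replicate was also the highest of its group for Serpinb2, at 9.23% against 3.67% to 5.58%, and for Serpinb9b, at 29.7% against 7.76% to 22.1%. Without it their differences between genotypes given siControl were -4.38 and -2.81. It was not the highest for Serpina9, Serpinb5, Serpinb8 and Serpinf1, which were also lower in A/A cells given siControl.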

How the data were processed

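Per the labels' protocols, RNA was taken from cultured cells with Trizol, libraries followed the TruSeq Stranded Total RNA protocol, and sequencing ran on an Illumina NovaSeq (the molecule is named polyA RNA). The authors deposited raw counts per gene, whole numbers without normalization, in 1 table of 8 shRNA libraries and 1 of 16 siRNA libraries. The submitters' processing notes name the build mm10 and DESeq2 1.24.0. For the aligner, the counter, its strand setting and the annotation: not given in the sources used here. Each column matched 1 sample by its name, and 0 columns had none.

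Counts were tested as deposited with the edgeR 4.0.16 quasi-likelihood test (R 4.3.3, limma 3.58.1), TMM scaling, filterByExpr on the groups and Benjamini-Hochberg adjustment over all 14697 genes of the shRNA table and 18138 of the siRNA table, with a threshold of 0.05. The siRNA groups shared 1 fit. A member is said to have risen or fallen, or to be higher or lower, in a comparison of groups only where it passed. CPM are counts per 1e6 counts on TMM-scaled totals, computed within each table, and the tables were not compared by a test. A fold against few or 0 counts is given from summed counts with an exact 95% counting interval, or against a floor of 3 counts over the group. Intervals and floors cover counting error only. The procedure was tested on simulated data. Alternatives were DESeq2 1.42.0, other scaling and filters, the replicate number as a block, paralogues summed, and libraries left out.

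Members, lists and tests were chosen with earlier results of these data known. Values per library are given for members with a group mean of 1 CPM and a call, and for Serpinh1, Serpine2, Serping1, Serpinf1, the Serpina1 copies and Serpina3n in any case. The counts of members include 1 that is not reported here. Each list names up to 2 rises and 2 falls. Same-numbered shRNA libraries deviated together (correlations 0.645, 0.544, 0.373 and 0.871), which was taken as pairing, and the siRNA libraries did not (-0.205 to 0.367). The pairing was clearest for replicate 4. Replicate 3 of shAtf4 was as close to replicate 2 of shControl, at 0.383. Gene positions and upstream sequences are from RefSeq on GRCm38.p6. Exon lengths and coding sequences are from the GENCODE annotation of the same build.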

Additional observations from a re-analysis of the deposited data

Results flagged for a closer look

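Among 67 groups of 4 libraries looked at, 9 held a library far from the other 3, and chance gives about 5% of groups. Replicate 4 of the shRNA groups accounted for 4 of them: Serpinb2 was at 21.4 CPM in shAtf4 replicate 4 against 1.64 to 4.08 CPM in the others, Serpinb9b at 20.5 CPM in shControl replicate 4 against 4.43 to 5.68 CPM, Serpinb1a at 3.86 CPM there against 0 to 0.183 CPM, and Serpine2 at 37.3 CPM there against 45.9 to 47.1 CPM. In A/A siControl replicate 1 Serpinh1 was at 90.9 CPM against 27.2 to 35.1 CPM. The remaining 4 lay in S/S siRNA libraries. Serpina1a was at 2.5 CPM in S/S siChchd10 replicate 1 against 1.93 to 2.03 CPM, and Serpinb5 at 2.42 CPM in S/S siChchd10 replicate 4 against 1.77 to 1.81 CPM. Serpina1b was at 2.17 CPM in S/S siControl replicate 2 against 3.02 to 3.17 CPM, and Serpinb6a at 342 CPM in S/S siControl replicate 3 against 386 to 388 CPM.

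The effect of siChchd10 differed between A/A and S/S cells for 8 members by the interaction test of edgeR, as A/A minus S/S on the log2 scale. Among them, Serpind1 (1.37), Serpini1 (1.27), Serpinf2 (1.22) and Serpinb9 (0.31) lay higher in A/A cells. Serpinb8 (-0.90), Serpina1b (-3.04) and Serpine2 (-5.92) lay lower. Those of Serpina1b and Serpine2 rest on few A/A counts, mostly in A/A siControl replicate 1.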

How the results depend on the processing

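Of 65 called member results, 58 kept their call under every alternative run, 7 lost it under at least 1, 16 results gained a call under at least 1, and 0 reversed. Those that lost it are Serpina1b and Serpina7 in S/S cells, Serpine2 in A/A cells, Serpina9 between genotypes with siControl, and the interactions of Serpina1b, Serpind1 and Serpine2. For shAtf4 against shControl, where 0 members and 79 of all genes were called, the replicate block called 3 members and 2969 genes, and leaving out replicate 4 of both groups called 2 members and 1726 genes. DESeq2 called 0 members and 491 genes. Leaving out 1 library at a time called 0 to 2 members and 13 to 536 genes, the most without shControl replicate 4. The cause was not tested. In the siRNA table, where the numbers did not pair the libraries, the replicate block ended the calls of Serpine2 in A/A cells (-6.08, adjusted p = 0.0527) and in the interaction (adjusted p = 0.0931) and changed no other member count by more than 1.5 times. DESeq2 gave no adjusted p for 5 results, all of Serpine2. Size factors of the RLE kind moved the median of all genes by at most 0.0185. Depth limits the members under 1 CPM: in A/A cells, 0 counts of Serpina1a allow up to 3 counts over the group.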
